A study of Rattus norvegicus with 30 samples.

Results

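The regions described here are all ChIP-seq peaks of the E14.5 rat embryo cortex that lie on genome scaffolds outside the assembled chromosomes. A peak was taken when the sequence name in its list was not 1 to 20, X, Y or MT. This gave 12254 of the 1549251 peaks in the 10 lists (0.791%), on 410 scaffolds, of which 338 have names starting with KL and 72 have names starting with AABR. The names do not tell whether a scaffold was assigned to a chromosome without a position, and no assembly report or gene annotation of the rn6 build was used here. "Scaffold" therefore means only a sequence named otherwise than the chromosomes, no gene is named, and the tissue could not be checked against marker genes.

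Chromatin came from the frontal lobe cortex of embryos of Wistar dams, which were fed either normal chow (control) or a high-fat diet with 60% of calories from fat (HFD), the latter being mated once they were obese. The cortices of a whole litter were pooled for each biological replicate, per the study's methods. Each antibody had 3 libraries per diet, 30 in all, and the authors deposited 1 MACS2 peak list for the 3 libraries together. One library, replicate 3 of the control total H3 group, carries labels of both diets. It was taken as control from its title, and its reads cannot be taken out of the control total H3 list. As each antibody and diet has 1 list, the spread between replicates is not known, no test between diets was run, and the 95% Wilson intervals given below cover counting error only.

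The antibodies read 3 histone modifications and 2 core histones. H3K4me3 is found at the promoters of active and poised genes, and H3K27me3 is the mark set by the Polycomb complex PRC2 and is associated with gene repression. H4K16Ac accompanies open, active chromatin. Total H3 and pan H4 recognise the histones whatever their modification, so that their lists show where nucleosomes were recovered. Promoters that carry H3K4me3 and H3K27me3 together are called bivalent and are known from developmental genes, although in a tissue both marks can also come from different cells. Scaffolds are pieces of assembled sequence that could not be joined to a chromosome, often because they are rich in repeats or in copies of other sequence. Reads from such copies are hard to place, and how reads with several matches were treated is not given in the sources used here.

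The number of scaffold peaks differed between antibodies much as the length of the lists did. For H3K27me3 the control list held 546 scaffold peaks and the HFD list 443. The H3K4me3 lists held 940 and 1182, the H4K16Ac lists 1196 and 1568, the total H3 lists 1247 and 1660, and the pan H4 lists 1444 and 2028. H3K27me3 was thus the only antibody with fewer scaffold peaks in HFD than in control. As a share of its list, scaffold peaks made up 0.948% (95% Wilson interval 0.872% to 1.03%) in control H3K27me3 and 0.903% (0.823% to 0.990%) in HFD H3K27me3. In control the shares of the other antibodies were 0.763% for H3K4me3, 0.688% for H4K16Ac, 0.643% for total H3 and 0.642% for pan H4. In HFD they were 1.00% (0.949% to 1.06%) for H3K4me3, 0.897% (0.854% to 0.942%) for H4K16Ac, 0.817% (0.778% to 0.857%) for total H3, while pan H4 reached 0.877% (0.840% to 0.916%). The control and HFD intervals overlapped for H3K27me3 and were apart for the other 4 antibodies. This did not hold among peaks with a −log10 q, the corrected significance that MACS2 gives each peak, of at least 5. There the intervals overlapped for H3K4me3 (1.05% in control and 1.195% in HFD), H4K16Ac (1.07% and 1.08%) and total H3 (0.770% and 0.816%), and the pan H4 share was lower in HFD (0.747%, 0.702% to 0.795%) than in control (0.859%, 0.797% to 0.926%). For H3K27me3 the intervals were apart there, at 1.01% (0.870% to 1.18%) in control and 4.55% (3.14% to 6.53%) in HFD. The HFD value rests on 27 of 594 peaks.

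In all 6 narrow lists the median scaffold peak was wider than the median peak on chromosomes. The control and HFD medians were 518 and 510 bp for H3K4me3 (468 and 455 bp over the chromosomes), 541 and 502.5 bp for total H3 (450 and 441 bp), and 525 and 536.5 bp for pan H4 (476 and 487 bp). They lay above the median of each of chromosomes 1 to 20, X and Y for total H3 in control (432 to 532 bp) and HFD (428.5 to 491 bp) and for pan H4 in HFD (471 to 531 bp), and within the range of these chromosomes in the other 3 narrow lists. The broad lists gave 625 bp for control H3K27me3 and 498 bp for HFD H3K27me3, and 679 bp and 760 bp for H4K16Ac. The control H4K16Ac median was below that of every chromosome (689 to 984 bp), and the other 3 were within the chromosomal range. H3K27me3 peaks on scaffolds were hence narrower in the HFD list, as they were over all chromosomes, with chromosomal medians of 715 and 487.5 bp. The widest scaffold peak of all was a 6518 bp H4K16Ac peak of the control list on KL568458.1. Among narrow peaks the widest was a 2767 bp pan H4 peak of the HFD list on KL568381.1, a scaffold that also held the widest narrow peaks of 4 other lists.

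Median enrichment on scaffolds was mostly somewhat above the median over the chromosomes, but not always above that of X or Y. The fold enrichment that MACS2 writes, the pileup over the background, had a scaffold median of 3.65 for control and 3.30 for HFD H3K27me3, 4.03 and 3.94 for H3K4me3, 3.51 and 3.17 for H4K16Ac, 4.96 and 4.23 for total H3, and 4.16 and 4.12 for pan H4. For 9 of the 10 lists this was above the median over the chromosomes, and for HFD pan H4 it was below it, at 4.12 against 4.22. Chromosome X had the same median as scaffolds for control H3K4me3 and for total H3 in both diets. It was higher in HFD for H4K16Ac (3.18) and pan H4 (4.285), and lower in the other lists. Chromosome Y was higher for HFD H3K27me3 (3.335), control H4K16Ac (3.999), control pan H4 (4.818) and total H3 in control (5.46) and HFD (4.7). In the other lists Y was lower. Fold enrichments of the broad lists are averages over a region and those of the narrow lists belong to a summit, so that they are not compared between antibodies.

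A peak was counted as well supported when its −log10 q was at least 5. In control this held for 168 scaffold peaks of H3K27me3 (30.8%, against 28.8% of the whole list), 384 of H3K4me3 (40.9% against 29.8%), 398 of H4K16Ac (33.3% against 21.5%), 646 of total H3 (51.8% against 43.3%) and 678 of pan H4 (47.0% against 35.1%). In HFD it held for 27 scaffold peaks of H3K27me3 (6.09%, Wilson interval 4.22% to 8.72%, against 1.21% of the whole list). The other HFD lists had 439 such peaks of H3K4me3 (37.1% against 31.2%), 452 of H4K16Ac (28.8% against 23.9%), 727 of total H3 (43.8% against 43.8%) and 986 of pan H4 (48.6% against 57.1%). The Wilson interval of the scaffold share lay above the share of the whole list in 7 lists, included it in control H3K27me3 (27.04% to 34.8%) and HFD total H3 (41.4% to 46.2%), and lay below it in HFD pan H4 (46.4% to 50.8%). The scaffold share of HFD H3K27me3 was also above that of each of chromosomes 1 to 20, X and Y, which ranged from 0.304% to 3.23%. On chromosome X the share was higher than on scaffolds in control H3K27me3 (33.7%), control H3K4me3 (43.2%) and HFD pan H4 (52.8%). The same held for total H3 in control (52.4%) and HFD (44.75%), and X was lower in the other lists.

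Peaks were unevenly spread over the scaffolds. The 10 scaffolds with the most peaks held 47.0% of all scaffold peaks, 109 scaffolds had a peak in all 10 lists, and 59 had a single peak in a single list. KL568162.1 held the most peaks in each of the 10 lists and 1084 in all. Its 10.8 Mb, counted to the end of its last peak, carried 45 control and 43 HFD peaks of H3K27me3, 89 and 114 of H3K4me3, 93 and 148 of H4K16Ac, 101 and 148 of total H3, and 122 and 181 of pan H4. It was followed by KL568139.1 with 900 peaks, KL568161.1 with 770, KL568157.1 with 708, KL568148.1 with 648, KL568160.1 with 459, KL568156.1 with 359, KL568151.1 with 298 and KL568149.1 with 267. The tenth, KL567939.1, reached its 262 peaks on 0.197 Mb, a density of 1334 peaks per Mb over the 10 lists against 99.98 per Mb on KL568162.1.

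This contrast was general. On 15 scaffolds, all named KL, the last peak ended at 1 Mb or beyond, and these are called large here. They held 6444 peaks (52.6%) on 62.7 Mb, and the other 395, called short, held 5810 peaks on 16.01 Mb. The division was made after the data were seen, and the extents are lower bounds of the scaffolds' lengths, because sequence beyond the last peak is not in the lists. In the control lists the large scaffolds had 4.48 H3K27me3, 7.46 H3K4me3, 9.09 H4K16Ac, 9.23 total H3 and 11.4 pan H4 peaks per Mb. Short scaffolds had 16.6, 29.5, 39.1, 41.7 and 45.7 peaks per Mb for these antibodies in the same order. Chromosomes 1 to 20 had 21.1, 45.5, 64.4, 71.9 and 83.3, chromosome X 10.5, 18.7, 24.5, 25.6 and 32.6, and chromosome Y 12.4, 24.4, 23.1, 24.4 and 26.6. The large scaffolds were thus the sparsest of these classes for every antibody in control, and the same order of large below short scaffolds was seen in HFD, where pan H4 had 18.3 and 55.1 peaks per Mb. Scaffolds without a peak in any list are not counted in these extents.

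**Figure D1:**
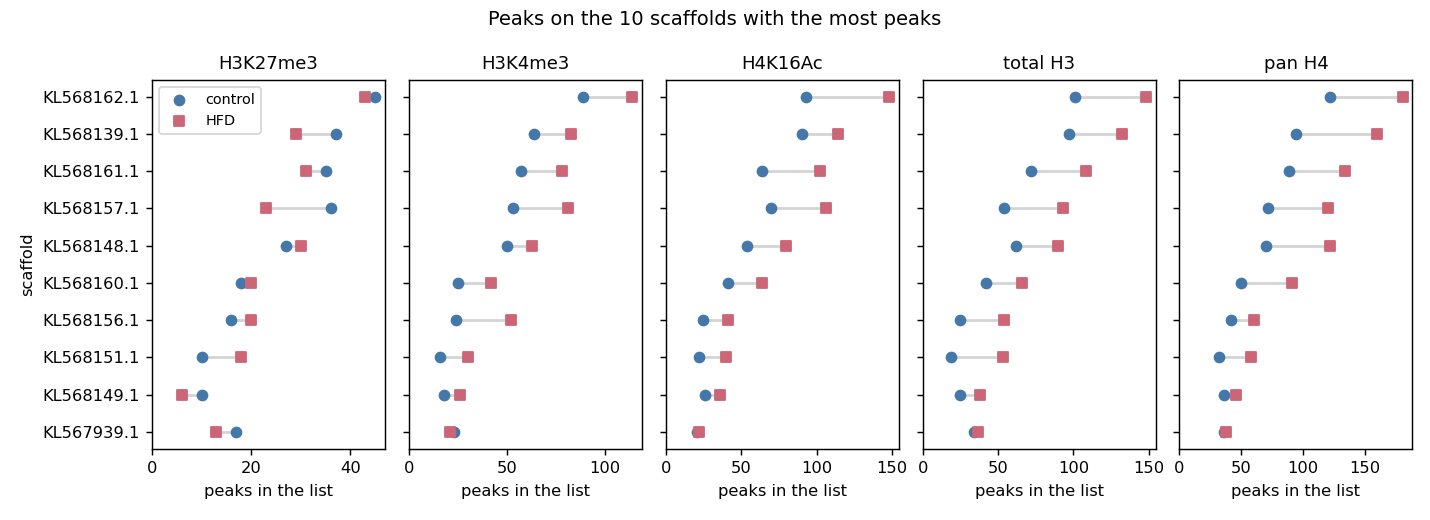
Number of peaks on the 10 scaffolds with the most peaks (vertical axis, scaffold name), for control (circles) and HFD (squares), with 1 panel per antibody and the number of peaks in the list on the horizontal axis. For H3K4me3, H4K16Ac, total H3 and pan H4 the HFD squares lie to the right of the control circles on the 9 large scaffolds, while on KL567939.1 they nearly coincide; for H3K27me3 the order varies between scaffolds.

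To ask whether the diets differed on scaffolds as they did on chromosomes, the number of peaks in HFD was divided by that in control. For H3K27me3 the ratio on scaffolds was 0.811 (95% interval from counting error 0.716 to 0.920), within the range of 0.740 to 0.952 over chromosomes 1 to 20 and close to 0.814 on X and 0.795 on Y. For the other antibodies the scaffolds lay above every one of the 20 autosomes. The H3K4me3 ratio was 1.26 (1.15 to 1.37), where autosomes ranged from 0.916 to 0.984. For H4K16Ac it was 1.31 (1.22 to 1.41) against 0.964 to 1.05. Total H3 gave 1.33 (1.24 to 1.43) against 0.992 to 1.12, and pan H4 gave 1.404 (1.313 to 1.502) against 0.953 to 1.10. Chromosomes X and Y also lay above all autosomes for these 4 antibodies, with 1.206 and 1.195 for H3K4me3, 1.16 and 1.44 for H4K16Ac, 1.29 and 1.57 for pan H4 and 1.38 and 1.35 for total H3. The Y values rest on few peaks, such as 77 in control and 92 in HFD for H3K4me3.

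In the lists as deposited, the surplus in HFD lay mainly on the large scaffolds. There the ratio was 1.43 for H3K4me3 (468 and 670 peaks), 1.504 for H4K16Ac (570 and 857), 1.58 for total H3 (579 and 912) and 1.61 for pan H4 (713 and 1146). All 15 large scaffolds had more peaks in HFD than in control for each of these 4 antibodies. On short scaffolds the ratios were 1.08 for H3K4me3 (472 and 512 peaks), 1.14 for H4K16Ac, 1.12 for total H3 and 1.21 for pan H4. For H3K27me3, 10 of the large scaffolds had fewer peaks in HFD, 4 had more and 1 had the same number. The steepest single differences among the 10 leading scaffolds were those of total H3 on KL568151.1, from 19 control to 53 HFD peaks, and of H3K4me3 on KL568156.1, from 24 to 52. The contrast of large and short scaffolds was smaller among peaks with −log10 q of at least 5, and for total H3 it turned. Their ratios were then 1.23 and 1.07 for H3K4me3 and 1.17 and 1.10 for H4K16Ac. Total H3 was at 1.10 and 1.15, and pan H4 at 1.53 and 1.39.

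By number, the largest surplus in HFD was that of pan H4 on KL568139.1, with 94 control and 160 HFD peaks. KL568162.1 had the largest surplus for H4K16Ac and total H3, KL568156.1 for H3K4me3 (equal to KL568157.1 with 53 and 81 peaks) and KL568151.1 for H3K27me3, with 10 and 18 peaks. The largest deficit in HFD was that of H3K27me3 on KL568157.1, with 36 and 23 peaks. For the other antibodies the largest deficits were small, from 5 to 0 on KL568465.1 for H3K4me3, from 25 to 20 on KL568458.1 for H4K16Ac, from 4 to 1 on KL567957.1 for total H3 (equal to KL568414.1 with 18 and 15 peaks) and from 9 to 4 on KL568443.1 for pan H4. Over the 410 scaffolds the numbers of control and HFD peaks of an antibody had a Spearman rho between 0.685 for H3K27me3 and 0.816 for H4K16Ac. This describes scaffolds that share libraries and differ in length.

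**Figure D2:**
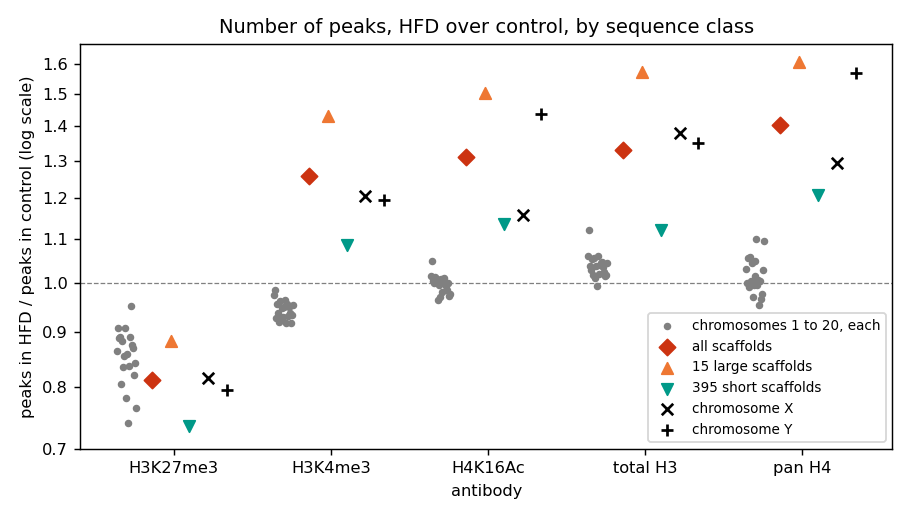
Number of peaks in the HFD list divided by that in the control list (vertical axis, log scale) for each antibody (horizontal axis), with 1 grey point for each of chromosomes 1 to 20 and symbols for all scaffolds, the 15 large and 395 short scaffolds, X and Y. For H3K4me3, H4K16Ac, total H3 and pan H4 all scaffolds together (1.26 to 1.404) and the large scaffolds (1.43 to 1.61) lie above the grey points, as do X and Y, whereas for H3K27me3 the scaffolds (0.811) lie among them.

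The threshold bore on these ratios. When peaks below a −log10 q of 5 were left out, the scaffold ratio was 0.161 for H3K27me3, 1.14 for H3K4me3, 1.14 for H4K16Ac, 1.13 for total H3 and 1.45 for pan H4. At that threshold the autosomes ranged from 0.00733 to 0.0637 for H3K27me3, from 0.947 to 1.03 for H3K4me3, from 1.06 to 1.28 for H4K16Ac, between 1.01 and 1.15 for total H3 and between 1.42 and 2.17 for pan H4. At this threshold scaffolds lay above all autosomes for H3K27me3 and H3K4me3, and within the autosomal range for H4K16Ac, total H3 and pan H4. The autosomes with a higher ratio than scaffolds numbered 8 for H4K16Ac, 1 for total H3 and 19 for pan H4. For pan H4 the ratio over all autosomes was 1.675, above the 1.45 of scaffolds, whereas in the lists as deposited scaffolds were above every autosome. The depth of the lists differed too. The background pileup read from the lists, in fragments per base, was 0.880 in control and 0.351 in HFD for H3K27me3, 1.23 and 1.08 for H3K4me3, 1.61 and 1.75 for H4K16Ac, 1.01 and 1.13 for total H3, and 1.64 and 1.80 for pan H4. It could be read for every peak of the narrow lists, but for 18.9% and 27.3% of the scaffold peaks of H3K27me3 and 10.7% and 9.12% of those of H4K16Ac, whose broad peaks hold averages. Its part in the ratios was not tested.

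Covered length gave the same directions. H3K27me3 peaks covered 428.0 kb of the scaffolds in control and 282.1 kb in HFD, a ratio of 0.659 where autosomes ranged from 0.561 to 0.718. H3K4me3 covered 521.3 and 642.5 kb (1.23), total H3 646.8 and 862.4 kb (1.33), and pan H4 780.6 and 1118 kb (1.43). For H4K16Ac the covered length was 1106 kb in control and 1643 kb in HFD, a ratio of 1.49, which exceeded its ratio of peak numbers, and its autosomes ranged from 0.906 to 1.08. On the large scaffolds alone H4K16Ac covered 541.3 and 983.0 kb, a ratio of 1.82.

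Most control peaks on scaffolds were found again in HFD at the same place. An HFD peak of the same antibody overlapped at least 1 bp of 1012 of the 1196 control H4K16Ac peaks (84.6%, 95% Wilson interval 82.5% to 86.5%, against 80.9% of the whole list), 1203 of 1444 pan H4 peaks (83.3%, 81.3% to 85.1%, against 74.0%), 1023 of 1247 total H3 peaks (82.0%, 79.8% to 84.1%, against 75.1%) and 693 of 940 H3K4me3 peaks (73.7%, 70.8% to 76.4%, against 58.4%). For H3K27me3 it was 273 of 546 peaks (50%, 45.8% to 54.2%, against 43.8%). The autosomes ranged from 78.0% to 84.6% for H4K16Ac, from 70.2% to 77.8% for pan H4, between 73.0% and 76.7% for total H3, from 54.5% to 60.9% for H3K4me3 and from 36.0% to 46.3% for H3K27me3. Scaffold peaks of control were shared with HFD more often than the peaks of any autosome for each antibody, and narrowly so for H4K16Ac (84.62% against 84.56%). Chromosome X was at 73.7% for H3K4me3, 83.9% for total H3 (above the scaffolds), 81.8% for pan H4, 83.3% for H4K16Ac and 48.6% for H3K27me3.

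In the other direction the share was lower for 4 antibodies. A control peak overlapped 62.0% of the 2028 HFD scaffold peaks of pan H4, 61.5% of the 1660 of total H3, 64.7% of the 1568 of H4K16Ac and 60.4% of the 1182 of H3K4me3. For H3K27me3 it overlapped 275 of the 443 (62.1%). On the large scaffolds the HFD shares were 57.3% for pan H4, 54.2% for total H3, 59.0% for H4K16Ac and 55.8% for H3K4me3, and on the short ones 68.1%, 70.5%, 71.6% and 66.4%. Autosomes ranged from 72.6% to 75.7% for pan H4, between 67.8% and 76.8% for total H3 and from 76.1% to 87.1% for H4K16Ac, all above the scaffold values, and from 58.7% to 64.4% for H3K4me3, around the scaffold value. For H3K27me3 they ranged from 47.0% to 55.8%, below it. Chromosome X was at 66.7% for pan H4, 63.0% for total H3, 71.9% for H4K16Ac, 61.0% for H3K4me3 and 60.1% for H3K27me3. For all of these but H3K4me3, X was outside the autosomal range on the same side as the scaffolds.

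Peaks found in a single diet were the weaker ones. For H3K4me3 the median −log10 q of control scaffold peaks was 5.81 with an HFD peak on them and 0.931 without, and 10 of the 247 without reached 5 (4.05%, against 3.98% of such peaks in the whole list). Pan H4 peaks of HFD had medians of 9.85 with a control peak and 2.33 without, and 120 of 770 without reached 5 (15.6% against 27.5%). The H3K27me3 peaks of control without an HFD peak had a median of 1.39 and 45 of 273 reached 5 (16.5% against 10.1%), whereas 0 of the 168 H3K27me3 peaks in HFD without a control peak did (0.0634% in the whole list). Of those 273 control peaks, 39 of the 45 that reached 5 lay on short scaffolds, and on chromosome X the share that reached 5 was 21.1%.

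Where both diets had a peak, the summits lay close together. In the narrow lists the median distance from a control summit on a scaffold to the nearest HFD summit, over control peaks with an HFD peak on them, was 47 bp for H3K4me3, 39 bp for total H3 and 37 bp for pan H4. On chromosomes 1 to 20 it was 53, 43 and 43 bp.

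Peaks of the 5 antibodies lay on one another. In control, 432 of the 546 H3K27me3 peaks on scaffolds overlapped an H3K4me3 peak (79.1%, 95% Wilson interval 75.5% to 82.3%, autosomes 71.3% to 76.2%). They overlapped a pan H4 peak in 83.9%, an H4K16Ac peak in 83.7% and a total H3 peak in 75.5% of cases, and each of these 3 shares was below that of every autosome (85.3% to 88.7%, 86.9% to 94.4% and 79.8% to 88.1%). In HFD, 316 of the 443 H3K27me3 peaks overlapped an H3K4me3 peak (71.3%, 67.0% to 75.3%, autosomes 57.4% to 63.5%). Scaffold H3K27me3 peaks were thus on H3K4me3 peaks more often than those of any autosome in either diet, and X was at 79.9% and 71.0%. The HFD H3K27me3 peaks overlapped a pan H4 peak in 79.5% and a total H3 peak in 76.7% of cases, within the autosomal ranges of 69.5% to 79.5% and 67.7% to 77.6%.

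H3K4me3 overlapped 54.9% of the control and 52.1% of the HFD scaffold peaks of H4K16Ac, 62.8% and 57.6% of those of total H3, and 59.4% and 53.9% of those of pan H4. Each of these 6 shares was above its autosomal maximum, which was highest at 57.6% for control total H3. Chromosome X was also above the autosomes in all 6, with 52.5% and 54.2% for H4K16Ac, 62.9% and 57.0% for total H3, and 55.0% and 53.9% for pan H4. In the reverse direction H3K4me3 peaks carried an H3K27me3 peak in 54.6% of cases in control (513 of 940) and 35.1% in HFD (415 of 1182), with fewer H3K27me3 peaks in the HFD list. The control share was above the autosomes (40.9% to 48.6%) and below X (59.3%), whereas the HFD share was within the autosomal range of 28.5% to 36.0% and near the 33.2% of the whole list. H4K16Ac overlapped the largest share of the total H3 peaks, 85.2% in control and 83.4% in HFD, and of the H3K4me3 peaks, 82.3% and 85.0%. With H4K16Ac, whose peaks are broad and many, total H3 peaks of scaffolds overlapped less often than those of every autosome in control (autosomes 86.5% to 90.3%) and in HFD (84.4% to 90.0%). Pan H4 peaks did so in HFD (80.2% against 83.9% to 90.4%) and were within the autosomal range in control (79.3% against 76.6% to 85.2%). On X these shares in control and HFD were 88.3% and 80.7% for total H3, and 76.7% and 78.0% for pan H4. In HFD X was thus below the scaffolds for both antibodies.

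**Figure D3:**
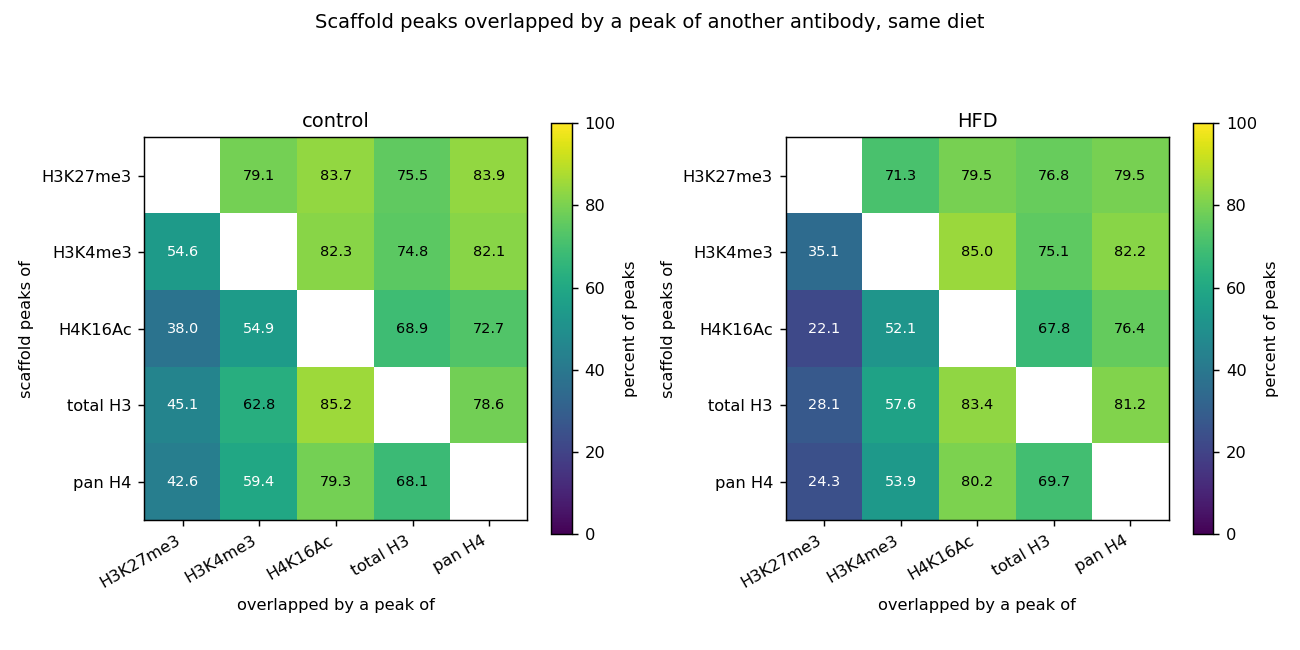
Percent of the scaffold peaks of one antibody (rows) that a peak of another antibody of the same diet overlapped by at least 1 bp (columns), for control on the left and HFD on the right; the colour scale runs from 0 to 100%. The columns of H3K27me3 are lowest (38.0% to 54.6% in control, 22.1% to 35.1% in HFD) and the row of H3K27me3 is high throughout (71.3% to 83.9%).

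Merging the peaks of all 10 lists gave 2528 scaffold regions covering 2457 kb, with a median width of 632 bp. Of these, 841 regions (33.3%) came from 1 list and 246 (9.73%) held a peak in every list. On chromosomes 1 to 20 these shares were 31.1% and 8.23%. Both diets had a peak in 1410 regions, HFD alone in 833 (33.0%, against 17.5% on chromosomes 1 to 20 and 28.9% on X) and control alone in 285 (11.3%, against 20.8% and 11.3%). The regions of HFD alone lay mostly on large scaffolds, where they made up 557 of 1373 regions (40.6%) against 89 (6.48%) for control alone. On short scaffolds the numbers were 276 (23.9%) and 196 (17.0%) of 1155.

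Most regions of a single diet came from 1 antibody. Of the 833 regions of HFD alone, 592 came from 1 antibody, 241 (28.9%, against 17.3% on chromosomes 1 to 20 and 26.8% on X) from 2 or more, 21 from 4 and 0 from all 5. Of the 285 of control alone, 249 came from 1 antibody, 36 (12.6% against 19.9% and 15.2%) from 2 or more, 1 from 4 and 0 from all 5. The 21 HFD regions in 4 lists lay on 12 scaffolds and had fold enrichments from 2.02 to 7.99. The highest was the total H3 peak at KL568157.1:794632-797157, a region where H3K4me3 reached 4.33, H4K16Ac 3.63 and pan H4 3.57 and no H3K27me3 peak was listed. KL568148.1 held 5 of these regions, among them KL568148.1:2110151-2110692 with 2.88 for H3K4me3, 3.59 for H4K16Ac, 3.93 for pan H4 and 3.29 for total H3. The single control region was KL568458.1:17346-18483, with fold enrichments between 2.13 and 2.75 and no H3K4me3 peak. These regions were looked up after their values were seen.

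**Figure D4:**
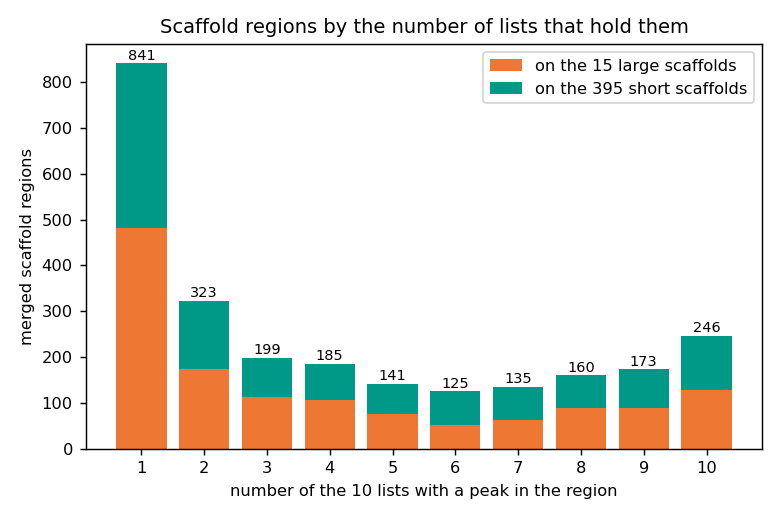
Merged scaffold regions (vertical axis, number) by how many of the 10 lists hold a peak in them (horizontal axis), split into large and short scaffolds; the number above a bar is its total. Regions of 1 list are the most frequent (841), the numbers drop to 125 at 6 lists, and they reach 246 at all 10.

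The co-occurrence of the repressive and the activating mark was followed from control to HFD over these regions. In control 447 regions had both an H3K4me3 and an H3K27me3 peak, 368 had H3K4me3 without H3K27me3, and 93 had H3K27me3 without H3K4me3. Of the 447 with both marks, 257 (57.5%) had both in HFD, 161 (36.0%) had H3K4me3 without H3K27me3, 4 had H3K27me3 without H3K4me3 and 25 had neither. Of the 93 with H3K27me3 without H3K4me3, 4 (4.30%) were in the same state in HFD, 32 (34.4%) had H3K4me3 without H3K27me3, 15 (16.1%) had both and 42 (45.2%) had neither. The 10768 such regions of chromosomes 1 to 20 gave 5.07%, 31.3%, 8.48% and 55.1% in the same order. Those of X gave 3.82%, 30.9%, 11.8% and 53.5%. Merged in the same way, the 43344 regions of chromosomes 1 to 20 with both marks in control had both in HFD in 53.9%, H3K4me3 without H3K27me3 in 35.1%, H3K27me3 without H3K4me3 in 2.09% and neither in 8.95% of cases. The scaffold share that had H3K4me3 without H3K27me3 in HFD was therefore near that of the chromosomes, and on X it was 36.4%. The HFD H3K27me3 list is the shallower one (background 0.351 against 0.880 fragments per base), and the part of depth in these transitions was not tested.

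Total H3 and pan H4 lay together in 782 regions in control and 1087 in HFD. Of these, 26 in control (3.33%, against 4.76% on chromosomes 1 to 20 and 5.22% on X) and 67 in HFD (6.16% against 4.70% and 9.38%) carried none of the 3 modifications. Conversely, 352 of the 1695 control regions (20.8% against 17.1% and 17.5%) and 442 of the 2243 HFD regions (19.7% against 18.8% and 14.9%) had a modification without a total H3 or pan H4 peak.

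The 246 regions present in all 10 lists lay on 99 scaffolds and were between 404 and 5758 bp wide, with a median of 1354 bp. KL568162.1 held 23 of them, KL568139.1 and KL568161.1 16 each, and 71 scaffolds held 1. Their median fold enrichment was 4.61 in control and 3.67 in HFD for H3K27me3, 8.67 and 7.95 for H3K4me3, 5.73 and 5.63 for H4K16Ac, 10.6 and 10.1 for total H3, and 10.2 and 11.5 for pan H4. H3K27me3 was higher in control in 170 of the 246 regions and lower in 76. H3K4me3 was higher in control in 141, H4K16Ac in 143, total H3 in 150 and pan H4 in 63. In the 22972 such regions of chromosomes 1 to 20 the fold was higher in control in 79.1% for H3K27me3, 59.0% for H3K4me3, 40.9% for H4K16Ac, 18.4% for pan H4 and 54.9% for total H3. The scaffold counts come to 69.1%, 57.3%, 58.1%, 25.6% and 61.0% in the same order. The 772 such regions of X were at 74.5%, 59.7%, 54.3%, 25.65% and 61.9%, nearer the scaffolds than the autosomes for H4K16Ac, pan H4 and total H3. The median HFD over control ratio of these fold enrichments was 0.861 for H3K27me3, 0.955 for H3K4me3, 0.972 for H4K16Ac, 0.956 for total H3 and 1.10 for pan H4, against 0.724, 0.959, 1.03, 0.976 and 1.17 on chromosomes 1 to 20. On X these ratios were 0.807, 0.9485, 0.9875, 0.941 and 1.12. These regions were chosen for having a peak in every list, and MACS2 adds 1 to the pileup and to the background before it divides them.

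One short stretch led nearly every list. The merged region KL568292.1:1064-1604, on a scaffold whose last peak ended at 27.68 kb, had the highest fold enrichment of all scaffold peaks in 9 of the 10 lists. H3K4me3 reached 31.0 in control and 32.1 in HFD there, total H3 33.3 and 31.8, pan H4 31.8 and 30.3, and H4K16Ac 16.1 and 18.0. H3K27me3 reached 21.7 in HFD, and in control 13.6 as an average over a wider peak of 541 bp. The fold of all 5 antibodies was thus high at this position in both diets, core histones and opposing marks alike. In the narrow lists, those of H3K4me3, total H3 and pan H4, this scaffold also had the highest scaffold pileup. It was between 1130 and 3509 fragments over these lists, against scaffold medians between 9 and 13. The broad lists hold averages, so that their pileups at this region are not given. As the fold divides pileup by background, the background was high there too, and its part was not tested. In control H3K27me3 the highest fold was instead that of KL568233.1:2931-3210 with 22.4. KL568233.1 carried peaks only in the 4 broad lists, 1 in each. In each list the scaffold peak with the highest fold ranked between 1 and 5 among all peaks of that list.

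Ranked by the lowest of their 10 fold enrichments, this region was followed by 4 others on short scaffolds. KL568051.1:23295-24015 had between 12.2 (H4K16Ac in control) and 27.6 (pan H4 in HFD) over the 10 lists, and H3K27me3 stood at 15.4 in control and 12.6 in HFD. KL568391.1:10220-10964 ranged from 10.9 for H3K27me3 in control to 27.2 for total H3 in HFD. KL568282.1:559-1122 ranged from 10.5 to 26.5 and KL568517.1:12910-13491 from 8.63 to 24.6. KL568517.1 held exactly 1 peak in each of the 10 lists. In 30 of the 246 regions the fold enrichment was at least 5 in every list. The sequences of these regions were not analysed here, because no genome of the rn6 build was used.

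**Figure D5:**
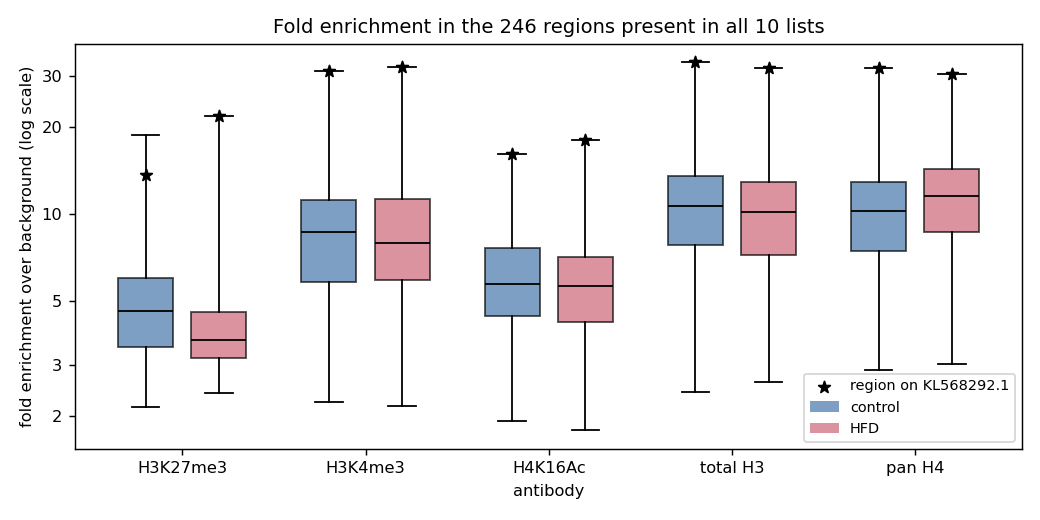
Fold enrichment over background (vertical axis, log scale) in the 246 regions present in all 10 lists, by antibody (horizontal axis), with control and HFD side by side; boxes span the quartiles with the median as a line, whiskers reach the lowest and highest region, and the star marks the region on KL568292.1. The star stands at the top whisker in 9 lists, and in control H3K27me3 it is at 13.6, below the highest of these regions at 18.6.

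The strongest peaks of each list included scaffold peaks. Among the 1000 peaks of a list with the highest −log10 p, scaffolds held from 13 in control H3K4me3 (1.3%) to 46 in HFD H3K27me3 (4.60%). This was above their share of the list in all 10 lists, and the closest case was H3K4me3 in HFD with 1.4% against 1.00%. Among the 100 strongest, the numbers were 17 in control and 9 in HFD for H3K27me3 and between 3 and 7 for the other lists. Peaks also began within 500 bp of a scaffold's start in 2.95% to 4.396% of scaffold intervals.

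AABR scaffolds had nearly equal numbers of peaks in both diets for 3 antibodies. They carried 901 of the 12254 peaks, and the leading one was AABR07024104.1 with 95 peaks on 64.28 kb. Their HFD over control ratio was 0.984 for H3K4me3 (61 and 60 peaks), 1.02 for H4K16Ac (116 and 118), 1.02 for total H3 (111 and 113) and 1.27 for pan H4 (114 and 145). H3K27me3 had 42 peaks in control and 21 in HFD, a ratio of 0.5 (counting error 0.298 to 0.839), and these covered 33.08 and 10.61 kb. With −log10 q of at least 1.3, 37 control and 6 HFD peaks of H3K27me3 were left on them. By count, the HFD surplus of H3K4me3, H4K16Ac and total H3 on scaffolds thus lay on sequences named KL. The counting-error intervals of these AABR ratios were wide, at 0.690 to 1.40, 0.788 to 1.31 and 0.784 to 1.32 in this order. Each included the ratio of the short scaffolds. All large scaffolds are named KL, so name and size cannot be told apart.

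Peaks of a single diet often lay where another antibody had a peak. Of the 553 H4K16Ac peaks found in HFD and not in control, 348 (62.9%, against 54.2% on chromosomes 1 to 20) overlapped an HFD peak of another antibody and 202 (36.5% against 46.7%) a control peak of another antibody. For the 770 such pan H4 peaks the shares were 71.3% (77.7% on chromosomes 1 to 20) and 46.0% (71.6%), for the 639 of total H3 78.7% (76.2%) and 58.7% (72.5%), and for the 468 of H3K4me3 80.3% (80.5%) and 59.0% (77.2%). Peaks of HFD alone were thus on a control peak of another antibody less often than on chromosomes 1 to 20 for each of these 4 antibodies, while the shares on an HFD peak lay on either side of those of the chromosomes. Of the 273 H3K27me3 peaks found in control and not in HFD, 248 (90.8%) lay on an HFD peak of another antibody. This was close to the 91.6% of chromosomes 1 to 20. A control peak of another antibody overlapped 222 of the 273 (81.3%), a lower share than the 90.99% of chromosomes 1 to 20. No peak of another antibody in either diet overlapped 19 of the 273 (6.96%, against 5.5% on chromosomes 1 to 20).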

How the data were processed

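Per the submitters' processing notes and the study's methods, reads were mapped by the authors with Bowtie2 (build rn6), and MACS2 then called peaks on the 3 libraries of each antibody and diet together. The methods say only that recommended settings of MACS2 were used, and the settings themselves, the use of an input and the treatment of duplicate and multiply mapped reads are not given in the sources used here. For each peak the deposited lists hold the MACS2 output of the authors. The score deposited is the −log10 q-value times 10, truncated. The fold enrichment as deposited is the ratio of pileup to background. The −log10 of the p-value and of the q-value were likewise computed by the authors with MACS2. These are summit values in the 6 narrow lists (H3K4me3, total H3, pan H4) and regional averages in the 4 broad lists (H3K27me3, H4K16Ac). Narrow lists repeat an interval for each of its summits, and each repeat was counted. Coordinates are those of rn6, counted from 1.

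Peaks, covered bases and overlaps of at least 1 bp were counted with pandas 2.3.3, numpy 2.4.6 and scipy 1.17.1 under Python 3.11.15, and plotted with matplotlib 3.10.9. Intervals of ratios came from the Wilson interval of the HFD share of both counts. Overlap functions and the reading of pileups from fold enrichment and p-value were tested on simulated data. No read totals are in the lists, so depth was described by the background pileup found most often among the peaks of a list for which it could be read. Samples were grouped by their titles. The scaffolds, the rule for naming them and the comparisons were chosen with earlier results of these data known. Named were the 10 scaffolds with the most peaks over all lists, in each list the scaffold with the most peaks and that with the highest fold enrichment, and per antibody the scaffold with the largest difference between diets in each direction. Other scaffolds and regions named in the text were chosen after their values were seen. The alternatives were −log10 q of at least 5, each interval counted once, leaving out the 10 leading scaffolds, AABR scaffolds alone, overlap of at least 50% of the peak, covered bases, and division by the ratio of the chromosomes. Chromosomes 1 to 20 and X were merged into regions in the same way as the scaffolds. Large and short scaffolds, leaving out KL568162.1, and −log10 q of at least 1.3 were added after seeing the data.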

Additional observations from a re-analysis of the deposited data

How the results depend on the processing

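A ratio or share was taken as moved when it left the 95% interval of the reported value, and a covered length when it differed by over 1.5 times. Of 175 recomputed values 72 stayed, 100 moved and 3 turned direction, and the cause was not tested. The 3 that turned were on AABR scaffolds alone, which hold few peaks: the HFD over control ratio of H3K4me3 peaks (0.984) and of the bases covered by H3K4me3 (0.896) and H4K16Ac (0.962). The other ratios moved there to 0.5 for H3K27me3 (bases 0.3205), 1.02 for H4K16Ac, 1.02 for total H3 and 1.27 for pan H4. With −log10 q from 5 upwards the ratio for H3K27me3 was 0.161 (bases 0.105), for H3K4me3 1.14, for H4K16Ac 1.14 and for total H3 1.13, and from 1.3 upwards it was 0.540 for H3K27me3 and 1.197 for H4K16Ac. Without the 10 leading scaffolds H3K27me3 was at 0.712, and the ratio was 1.14 for H3K4me3, 1.18 for H4K16Ac, 1.17 for total H3 and 1.27 for pan H4. Large scaffolds alone gave 1.43, 1.504, 1.58 and 1.61 for H3K4me3, H4K16Ac, total H3 and pan H4, and short ones 1.08, 1.14, 1.12 and 1.21. Divided by the ratio of the chromosomes, H3K27me3 was at 0.952. Leaving out KL568162.1 or counting each interval once moved no ratio beyond its interval.

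The share of a list on scaffolds at −log10 q of at least 5 was 4.55% for HFD H3K27me3, 1.05% and 1.195% for H3K4me3 in control and HFD, 1.07% and 1.08% for H4K16Ac, 0.859% and 0.747% for pan H4, and 0.770% for control total H3. By covered bases it was 0.564% for control H4K16Ac, 0.874% for HFD total H3 and 0.930% for HFD pan H4. AABR scaffolds alone held 0.0729% and 0.0428% of the H3K27me3 lists in control and HFD, 0.0495% and 0.0510% of H3K4me3, 0.0667% and 0.0675% of H4K16Ac, 0.0573% and 0.0556% of total H3, and 0.0507% and 0.0627% of pan H4.

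The share of control peaks overlapped in HFD is given with H3K27me3 first, then H3K4me3, H4K16Ac, total H3 and last pan H4. It was 15.5%, 87.2%, 87.7%, 86.7% and 90.7% at −log10 q of at least 5, 42.9%, 68.9%, 74.1%, 76.6% and 78.1% on AABR scaffolds, and 38.5%, 69.9%, 78.8%, 78.7% and 79.7% with 50% of the peak overlapped. For the last 4 it was 76.9%, 88.9%, 85.0% and 86.4% on large scaffolds and 70.6%, 80.7%, 79.5% and 80.3% on short ones. Without the 10 leading scaffolds H4K16Ac was at 81.9%, total H3 at 79.7% and pan H4 at 81.0%. With each interval once total H3 was at 79.4% and pan H4 at 81.1%.

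For the share of peaks on an H3K4me3 peak, 50% overlap gave in control and HFD 66.5% and 63.4% for H3K27me3, 39.1% and 33.4% for H4K16Ac, 57.9% and 50.5% for total H3, and 52.8% and 45.9% for pan H4. With −log10 q from 5 upwards these shares were 94.6% and 88.9% for H3K27me3, 70.1% and 68.4% for H4K16Ac, and 47.7% for HFD pan H4. AABR scaffolds gave 83.3% and 81.0% for H3K27me3, 40.5% and 42.4% for H4K16Ac, 47.4% and 43.4% for pan H4, and 49.5% for control total H3. With each interval once it was 58.6% and 53.3% for total H3 and 54.8% and 48.9% for pan H4, and without the 10 leading scaffolds 82.4% for control H3K27me3.

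No paired analysis was possible because the 3 libraries of a group share a single list, which also meant that no replicate was left out. The lists hold no read totals. Background was lowest in HFD H3K27me3, at 0.351 fragments per base, and a difference in weak H3K27me3 peaks was not detectable apart from depth.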
